A study of Mus musculus with 64 samples.

Results

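The genes of the constitutive proteasome were described in whole mouse hearts lacking BMAL1 in cardiomyocytes and in hearts of littermates, around the day. Probes were taken whose platform symbol begins with Psma, Psmb, Psmc, Psmd, Psme or Psmg and a number, without the immunoproteasome subunits Psmb8, Psmb9 and Psmb10. A probe was kept where its detection p, which compares it with the negative controls of the same array, was under 0.01 on at least 4 arrays. Of 25697 probes, 63 matched and 56 of these were kept, which gave 40 genes. Psmc3ip and Psme3ip1 share the letters but encode no subunit, and they were left out of all counts (KO minus WT 0.01 and 0.03 on the log2 scale, adjusted p = 0.940 and 0.668). The remaining 38 genes, out of 9137 features tested with 1 probe per gene, comprised 5 alpha and 7 beta subunits of the 20S core, 6 ATPases and 10 other subunits of the 19S cap, 4 activators and 6 assembly chaperones. Psma1 and Psma6 were on the array and had no kept probe.

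The proteasome degrades proteins that carry ubiquitin. Its barrel-shaped 20S core holds the proteolytic sites on the inner beta rings, closed off by the outer alpha rings, and the 19S cap binds, unfolds and deubiquitinates the substrate before it enters. Other activators, PA28 and PA200, open the core without the cap, and dedicated chaperones assemble core and cap. Cardiac muscle relies on this system to remove damaged and surplus contractile proteins. NFE2L1 is known to raise transcription of many subunit genes together when the proteasome is impaired, and BMAL1, with its partner CLOCK, activates the genes of the circadian clock.

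Hearts came from male CBK mice, in which BMAL1 was deleted in cardiomyocytes only (labelled KO), and from WT littermates, all on the C57Bl/6J background, fed standard chow ad libitum with lights on for 12 h and off for 12 h a day. RNA of the whole heart was hybridised to Illumina MouseRef-8 v2 arrays at zeitgeber times (ZT, hours after lights on) 0, 3, 6, 9, 12, 15, 18 and 21, with 4 arrays per genotype and time, 64 in all. The sources used here give neither the promoter that drives the recombinase nor an age, and cells other than cardiomyocytes keep the gene by design. Whether each sample came from another mouse is not stated in the labels. A p-value here therefore reflects only how far these samples scatter, and some of that scatter may be technical.

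Between 9237 and 10594 probes were detected per KO array and between 9407 and 10605 per WT array. Sample numbers put ZT 0, 6, 12 and 18 into 1 set of 32 arrays and ZT 3, 9, 15 and 21 into another, so a set term was fitted and values within each set are given. Arntl, which encodes BMAL1, had a 24 h amplitude of 0.59 in KO and 1.60 in WT hearts on the log2 scale, and it was called lower in KO at 2 times (ZT 0 and 3) and higher at 2 times (ZT 12 and 15). Nothing used here says whether its probe lies in the deleted part, so it does not check the deletion. The arrays KO ZT 9 replicate 170, KO ZT 9 replicate 206 and WT ZT 6 replicate 1 stand apart: their deviations from the group mean were over 1.5 times those of a typical array. Counts below were also taken without these 3 arrays, and are given where they differ by over 1.5 times.

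The 6 arrays with the lowest sample numbers, 1 to 22, also stood together, and 5 of them are KO (2 each at ZT 0 and ZT 12, 1 at ZT 6) against 1 WT (ZT 6). The median correlation of their residuals from the cosine fit over all features was 0.56 among themselves, -0.21 with the other 26 arrays of ZT 0, 6, 12 and 18, and 0.04 among those 26. On these 6 arrays Psme2 lay between 8.10 and 8.77, against 6.84 to 8.16 on the other 26, and Psme4 lay between 12.09 and 12.41, against 12.16 to 13.06. Of the 38 genes, 2 did not overlap between them, Psma7 (10.64 to 11.09, against 10.08 to 10.54) and Psmd5 (5.98 to 6.36, against 4.94 to 5.69). How many of all features did so was not counted, so this cannot be read as particular to these genes. The labels give no reason for this, and results were also taken without these 6 arrays, a comparison chosen after the data were seen.

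Averaged over the day, 14 genes of the 20S core, the 19S cap and their assembly chaperones were higher in KO than in WT hearts, by 1.07-fold to 1.30-fold, and the activators Psme1 and Psme4 were lower. Of the 38 genes, 34 had a positive difference of the 24 h mean, KO minus WT, against 45.6% of all features. In a limma fit of a 24 h cosine to each genotype, with p-values adjusted by Benjamini-Hochberg over all 9137 features and a threshold of 0.05, 14 genes rose, against 16.8% of all features, and 2 fell, against 19.7%. The median difference of the 38 genes was 0.09 on the log2 scale, beside -0.02 over all features. Of all calls, 46.0% were higher. With median scaling in place of quantile normalization this was 76.3%. In that setting 21 of the 38 genes rose and 1 fell, against 2212 and 686 of the 9137 features. Without the 3 arrays that stand apart, 16 rose and 2 fell, against 1659 and 2057 of all features. Without the 6 low-numbered arrays 18 rose and 2 fell, against 1620 and 1652 of all features, with Psmb3, Psmc5, Psmd1 and Psmd13 added. In RNA of a whole organ, fewer cells of a type and less RNA per cell cannot be told apart.

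**Figure D1:**
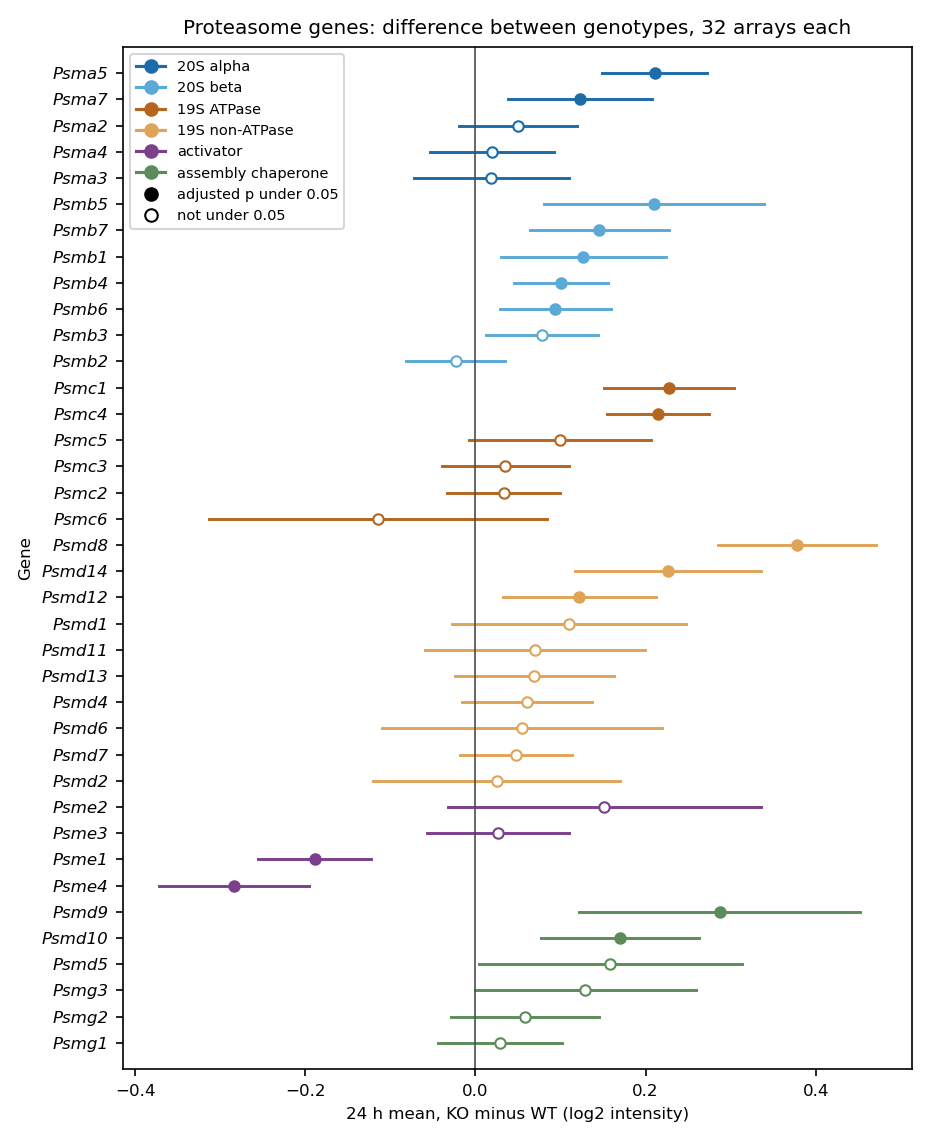
The 24 h mean difference, KO minus WT in log2 intensity, is on the x axis for each of the 38 genes, listed by class, with its 95% confidence interval as a line. Filled points are the 16 genes with an adjusted p under 0.05; Psmd8 lies farthest to the right (0.38) and Psme4 farthest to the left (-0.28).

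Markers of the cells of the heart were read in the same fit, in which 16.8% of all features rose and 19.7% fell. Of 7 cardiomyocyte markers on the array, all detected, 0 rose and 4 fell (Myh6, Tnni3, Ryr2 and Pln), with summed intensities of 110432 to 131074 in KO hearts, against 120238 to 135867 in WT hearts. Of 6 fibroblast markers 2 rose (Col1a1 and Lum), with sums of 9061 to 15110 in KO and 10561 to 15288 in WT. Of 5 endothelial markers 3 fell (2666 to 3913 in KO, 3204 to 4126 in WT), with Kdr not detected, and of 4 myeloid markers 3 fell (2445 to 4523 in KO, 2489 to 4846 in WT).

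The 5 detected smooth muscle and pericyte markers (4238 to 8789 in KO, 4897 to 9531 in WT), the 3 red blood cell markers (16645 to 36189 in KO, 18080 to 36931 in WT) and the 1 detected lymphocyte marker, Cd52 (119 to 337 in KO, 138 to 328 in WT), had no call. Cnn1, Cd3e and Cd79a were not detected. Without the 6 low-numbered arrays 1 fibroblast marker rose, and 4 cardiomyocyte, 2 endothelial, 3 myeloid and 1 smooth muscle and pericyte markers fell. Of all 9137 features, 1620 rose and 1652 fell in that fit. The ranges of the sums overlapped between the genotypes for every list. The median sums in KO and WT hearts were 120297 and 126861 for cardiomyocyte, 3362 and 3632 for endothelial, and 3207 and 3721 for myeloid markers. For fibroblast markers they were 12359 and 12213, and for smooth muscle and pericyte markers 6284 and 6109. Red blood cell markers had 28175 and 28403, and Cd52 had 178 and 192. The part of these cells in the proteasome differences was not tested.

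Among the alpha subunits, which form the outer rings and the gate of the core, 2 of 5 rose and 0 fell. Psma5 had a lowest, median and highest log2 intensity of 11.59, 11.86 and 12.18 in KO hearts, against 11.49, 11.65 and 11.79 in WT hearts. The ranges overlapped, but 22 of 32 KO arrays lay above the highest WT array and 30 lay above the WT median. The difference was 0.21 ± 0.03 (SE, n = 32 each), or 1.16-fold (adjusted p = 6.1e-08). Psma7 had 10.22, 10.64 and 11.09 in KO hearts, against 10.08, 10.47 and 10.92 in WT hearts. Its groups overlapped widely, with 22 KO arrays above the WT median, and the difference was 0.12 ± 0.04 (1.09-fold, adjusted p = 0.0167). The highest array of each genotype is a low-numbered one. Without the 6 low-numbered arrays the difference was 0.08 (limma adjusted p = 0.0291). Over ZT 0, 6, 12 and 18 it was then 0.03 (limma adjusted p = 0.724). A further Psma7 probe gave 0.16 and was called as well. Psma2, Psma3 and Psma4 did not pass, with differences of 0.02 to 0.05.

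The beta rings carry the 3 proteolytic sites, and 5 of the 7 beta genes rose, with 0 lower. Psmb5, which holds the chymotrypsin-like site and is the main target of bortezomib, had 9.24, 10.01 and 10.48 in KO hearts, against 8.98, 9.80 and 10.16 in WT hearts. Both ranges were wide and overlapped, with 11 KO arrays above the highest WT array. The difference was 0.21 ± 0.06 (1.16-fold, adjusted p = 0.00752). Psmb7, the trypsin-like subunit, had 11.24, 11.75 and 12.15 in KO hearts, against 11.07, 11.61 and 11.98 in WT hearts. In this case 25 KO arrays lay above the WT median, 4 of them above every WT array, and the difference was 0.15 ± 0.04 (1.11-fold, adjusted p = 0.00322). Of its 3 probes, 2 were called higher, and the 3 differences ran between 0.09 and 0.25. Psmb6, the caspase-like subunit, had 11.15, 11.56 and 11.85 in KO hearts, against 11.18, 11.44 and 11.66 in WT hearts. The lowest array of all was a KO array, although 27 KO arrays lay above the WT median, and the difference was 0.09 ± 0.03 (1.07-fold, adjusted p = 0.0189).

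Of the beta subunits without a proteolytic site, 2 of 4 rose. Psmb4 had 12.46, 12.58 and 12.98 in KO hearts, against 12.34, 12.50 and 12.67 in WT hearts. The KO arrays reached higher and 26 lay above the WT median, with a difference of 0.10 ± 0.03 (1.07-fold, adjusted p = 0.00239). Psmb1 rose by 0.13 (adjusted p = 0.0326) and is named with its values seen, as is Psmb3, at 0.08 with an adjusted p of 0.0557. Psmb1 lost its call without KO ZT 9 replicate 170 (adjusted p = 0.0505), WT ZT 18 replicate 60 (adjusted p = 0.0535) or WT ZT 21 replicate 199 (adjusted p = 0.0528). Psmb2 gave -0.02 and its other kept probe -0.01, and neither was called.

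The 6 ATPases form the ring of the cap that unfolds the substrate and threads it into the core, and 2 of them rose while 0 fell. Psmc4 (Rpt3) had 10.97, 11.16 and 11.43 in KO hearts, against 10.72, 10.93 and 11.23 in WT hearts. Every one of the 32 KO arrays lay above the WT median, and 7 lay above the highest WT array. The difference was 0.21 ± 0.03 (1.16-fold, adjusted p = 2.1e-08). Psmc1 (Rpt2) had 9.94, 10.22 and 10.61 in KO hearts, against 9.64, 10.01 and 10.23 in WT hearts. With 14 KO arrays above all WT arrays, its difference was 0.23 ± 0.04 (1.17-fold, adjusted p = 1.6e-06). Psmc2, Psmc3 and Psmc5 had differences of 0.03 to 0.10 and did not pass, although a further Psmc5 probe was called at 0.18 (adjusted p = 0.0137). Psmc6 was near background, detected on 25 of 32 KO and 28 of 32 WT arrays, and gave -0.11 ± 0.10.

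Of the 10 non-ATPase subunits of the cap, all had a positive difference with the probe used, 3 rose and 0 fell. Psmd8 (Rpn12), a lid subunit incorporated late in lid assembly in yeast, had 10.41, 10.97 and 11.52 in KO hearts, against 10.02, 10.64 and 10.97 in WT hearts. The KO median was as high as the highest WT array, and 16 KO arrays lay above every WT array. At 0.38 ± 0.05 (1.30-fold, adjusted p = 5.4e-10) it had the largest difference of the 38 genes, and 3.67% of all features had a larger positive one. Psmd14 (Rpn11), the deubiquitinase that removes the ubiquitin chain, had 8.62, 9.28 and 9.53 in KO hearts, against 8.35, 9.03 and 9.35 in WT hearts. Here 10 KO arrays lay above the highest WT array, and the difference was 0.23 ± 0.05 (1.17-fold, adjusted p = 0.000621). Psmd12 (Rpn5), a scaffold subunit of the lid, had 10.36, 10.68 and 11.41 in KO hearts, against 10.12, 10.62 and 10.80 in WT hearts. The highest KO array is ZT 9 replicate 206, which stands apart. The medians of Psmd12 were close, the difference was 0.12 ± 0.04 (1.09-fold, adjusted p = 0.0269), and a further Psmd12 probe gave -0.01 and was not called. The ubiquitin receptor Psmd4 (Rpn10), the large scaffold subunits Psmd1 (Rpn2) and Psmd2 (Rpn1), and Psmd6, Psmd7, Psmd11 and Psmd13 did not pass, with differences of 0.02 to 0.11. A further Psmd6 probe, detected on 49 arrays, gave -0.03 and was not called.

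Of the 4 activators that can replace the cap, 2 fell and 0 rose. Psme4, which encodes PA200, a nuclear activator linked to the degradation of acetylated histones, had 12.09, 12.47 and 12.73 in KO hearts, against 12.41, 12.71 and 13.06 in WT hearts. Only 2 KO arrays reached above the WT median, and 12 lay below the lowest WT array. The difference was -0.28 ± 0.04 (0.821-fold, adjusted p = 2.7e-07), and its other probe gave -0.27 and was called too. Psme1, the alpha subunit of PA28, had 11.19, 11.41 and 11.88 in KO hearts, against 11.35, 11.56 and 11.96 in WT hearts. With 10 KO arrays below every WT array, it gave -0.19 ± 0.03 (0.877-fold, adjusted p = 4.0e-06), while its other probe gave -0.10 and was not called (adjusted p = 0.150); with median scaling Psme1 itself gave -0.08 and lost its call (adjusted p = 0.319). Its partner Psme2, the beta subunit of PA28, gave 0.15 ± 0.09, or 0.05 without the 6 low-numbered arrays, and passed in neither fit. Psme2 was called higher with median scaling and without the arrays that stand apart (smallest limma adjusted p of the alternatives 0.0442). Psme3, the nuclear PA28 gamma, did not pass, at 0.03 ± 0.04. PA28 alpha and beta are known to be induced by interferon, as are the immunoproteasome subunits, of which Psmb9 fell by 0.30 (adjusted p = 0.000806), Psmb10 gave -0.11 (adjusted p = 0.0554) and Psmb8 gave -0.01. Psmb10 passed without the 6 low-numbered arrays, at -0.12 (adjusted p = 0.0412).

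All 6 assembly chaperones had a positive difference, 2 rose and 0 fell. Psmd10 (gankyrin), a chaperone of the ATPase ring, had 8.13, 8.79 and 9.27 in KO hearts, against 8.29, 8.58 and 8.79 in WT hearts. The KO arrays ranged more widely at both ends, with 16 above the highest and 2 below the lowest WT array. Those 2 are low-numbered arrays, and the highest KO array is ZT 9 replicate 170, which stands apart. The difference was 0.17 ± 0.05 (1.13-fold, adjusted p = 0.00249), or 0.24 without the 6 low-numbered arrays, and the 3 probes of Psmd10 were all called higher. Psmd9 (p27), another chaperone of the ATPase ring, had 4.94, 5.63 and 6.30 in KO hearts, against 4.70, 5.27 and 5.93 in WT hearts. It was detected on 16 of 32 KO and 11 of 32 WT arrays, so its difference of 0.29 ± 0.08 (1.22-fold, adjusted p = 0.00410) lies near background. Psmd5, which also attends the ATPases, was detected on 18 KO and 10 WT arrays and gave 0.16 ± 0.08, or 0.06 without the 6 low-numbered arrays, and passed in neither fit. Without the 3 arrays that stand apart Psmd5 was called higher (limma adjusted p = 0.0120). The core chaperones Psmg1, Psmg2 and Psmg3 had differences of 0.03 to 0.13 and did not pass.

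Genes with further probes allowed a check within the arrays. For 13 of the 38 genes more than 1 probe was kept, and over all 53 probes 19 were called higher, against 17.0% of the 12101 kept probes, and 3 lower, against 17.4%. No gene had probes called in opposite directions. RefSeq lists pseudogenes near in name to Psma5, Psmb5, Psmb6 and Psmb7 and a further gene, Psme2b, and cross-hybridisation of their transcripts was not tested.

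The start regions of these genes were read to show which bases lie before genes that rose. Windows of 250 bases before to 50 after the start were taken from RefSeq (GRCm38.p6), with 1 chromosome left out. They were matched to 32 of the 38 genes, the first listed window standing for a gene. Psmb1, Psmb2, Psmb7, Psmc3, Psmd7 and Psmg2 had no window among those used. Windows were searched on both strands for the antioxidant response element core, read by NFE2L1 and NFE2L2 (TGAC, any 3 bases, GC), for the E-box CACGTG, read by CLOCK and BMAL1, and for CCAAT, read by NF-Y. The response element core was in 6 of 32 windows (Psmb5, Psmb6, Psmc6, Psmd9, Psmd12 and Psme4), or 18.8%, beside 12.4% of the 32817 distinct windows used. Among those 32817 a gene can have more than 1 window. The E-box was in 3 (Psma4, Psmd9 and Psme3), or 9.38%, beside 7.15%, and CCAAT was in 10, or 31.2%, beside 37.4%. Among the 12 matched genes that rose, 4 held the response element core, 1 the E-box and 4 CCAAT; of the 2 that fell, Psme4 held the response element core. A match is a description of letters, not of binding, and an E-box and a response element core may overlap in a window, which those of Psmd9 do not. The 250 bases before the start follow, 5′ to 3′ on the gene's strand, for the gene with the largest difference, for 2 genes of the cap with CCAAT, for the chymotrypsin-like subunit and for the gene with both an E-box and a response element core. Capitals mark the matches. Psmd8 lies at chr7:29180674-29180923 on the minus strand, Psmd14 at chr2:61711444-61711693 on the plus strand, Psmc1 at chr12:100109952-100110201 on the plus strand, Psmb5 at chr14:54617996-54618245 on the minus strand and Psmd9 at chr5:123227940-123228189 on the plus strand.
Psmd8: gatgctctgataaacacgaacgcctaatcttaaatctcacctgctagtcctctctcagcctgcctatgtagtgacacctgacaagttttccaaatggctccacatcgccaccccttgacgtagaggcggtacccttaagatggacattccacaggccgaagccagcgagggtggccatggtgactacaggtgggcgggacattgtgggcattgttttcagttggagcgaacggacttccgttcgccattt
Psmd14: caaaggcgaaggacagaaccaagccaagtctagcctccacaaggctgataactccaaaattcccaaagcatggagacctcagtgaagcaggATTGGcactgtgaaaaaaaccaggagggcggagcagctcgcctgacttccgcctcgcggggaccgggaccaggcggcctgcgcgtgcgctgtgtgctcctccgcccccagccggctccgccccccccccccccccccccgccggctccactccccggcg
Psmc1: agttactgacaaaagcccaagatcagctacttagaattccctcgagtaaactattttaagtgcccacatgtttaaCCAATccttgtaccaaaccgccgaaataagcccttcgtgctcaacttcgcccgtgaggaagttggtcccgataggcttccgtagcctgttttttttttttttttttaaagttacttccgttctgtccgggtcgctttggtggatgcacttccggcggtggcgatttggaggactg
Psmb5: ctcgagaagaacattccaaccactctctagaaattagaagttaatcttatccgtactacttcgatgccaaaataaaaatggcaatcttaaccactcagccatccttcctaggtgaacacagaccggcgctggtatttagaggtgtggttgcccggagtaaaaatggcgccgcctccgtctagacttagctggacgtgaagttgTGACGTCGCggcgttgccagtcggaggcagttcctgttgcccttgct
Psmd9: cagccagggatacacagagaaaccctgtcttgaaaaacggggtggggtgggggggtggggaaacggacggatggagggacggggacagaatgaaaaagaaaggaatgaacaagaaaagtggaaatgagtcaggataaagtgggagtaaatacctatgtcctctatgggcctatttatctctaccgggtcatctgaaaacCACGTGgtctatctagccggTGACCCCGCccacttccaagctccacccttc

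No match stands in the Psmd8 sequence above, 1 CCAAT stands in each of those of Psmd14 (on the opposite strand, read as ATTGG) and Psmc1, and the E-box of Psmd9 lies before its response element core. Of the matched genes that rose, Psma5, Psmb4, Psmc4 and Psmd8 held none of the 3 motifs in the whole window. Psmb5, Psmb6, Psmd9 and Psmd12 held the response element core, and Psma7, Psmc1, Psmd10 and Psmd14 held CCAAT. Psmd9 held the E-box as well. Any part of these motifs in the differences was not tested.

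The difference was also followed through the day. At single times, with 4 arrays per genotype, 7 of 304 pairs of gene and time were called higher and 1 lower in a limma fit with a mean per group, against 3.28% and 3.43% of all pairs of feature and time. These were Psmc1, Psme2 and Psmd9 at ZT 0, Psmd8 at ZT 3 and ZT 6, Psmb4 at ZT 9 and Psma5 at ZT 15 as higher, and Psme4 at ZT 12 as lower; no gene was called at 3 or more times. The calls moved to 13 higher and 5 lower without the 3 arrays that stand apart. Without the 6 low-numbered arrays there were 7 higher and 2 lower, but these were in part other pairs: Psmd8 at ZT 3, Psmb4 at ZT 9 and Psma5 at ZT 15 kept their calls, while the 5 calls at ZT 0, 6 and 12 were lost. At ZT 0, with 2 KO and 4 WT arrays left, Psme2 gave 0.32 in place of 0.85, Psmc1 0.19 in place of 0.38 and Psmd9 0.58 in place of 0.71 (limma adjusted p = 0.541, 0.485 and 0.383). The 2 lower calls were then Psme4 at ZT 15 and ZT 18. Shares over all pairs of feature and time were not taken without the 3 or the 6 arrays, so these changes cannot be set against all features. Arrays of the genotypes did not overlap in 33 pairs with KO higher, against 5.96% of all pairs of feature and time, and in 3 with KO lower, against 6.17%.

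Psmd8 and Psmc4 showed this separation at 5 times each, Psma5, Psmb4 and Psmc1 at 3. At ZT 6 Psmd8 had 10.86, 11.24, 11.25 and 11.35 in KO hearts, against 10.48, 10.60, 10.64 and 10.68 in WT hearts, and no array overlapped (0.58 ± 0.13, SE, limma adjusted p = 0.00405). Without the low-numbered arrays, 1 in each genotype, it was 0.48 (limma adjusted p = 0.0698). At ZT 15 Psma5 had 11.83, 11.90, 11.99 and 12.10 in KO hearts, against 11.59, 11.65, 11.70 and 11.71 in WT hearts, again with no overlap (0.29 ± 0.09, limma adjusted p = 0.0387). Psme4 at ZT 12 had 12.09, 12.21, 12.46 and 12.73 in KO hearts, against 12.60, 12.71, 12.92 and 13.01 in WT hearts, and 1 KO array reached into the WT range (-0.44 ± 0.13, limma adjusted p = 0.0208). The 2 lowest of these KO arrays are among the low-numbered ones, as no WT array of that time is, and without them the difference was -0.21 (limma adjusted p = 0.568). Taken by sign alone, 5 genes were higher in KO at 8 of 8 times (Psma5, Psmc1, Psmc4, Psmd8 and Psmd14), against 9.99% of all features, and Psme1 and Psme4 were lower at 8 of 8, against 10.9%.

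**Figure D2:**
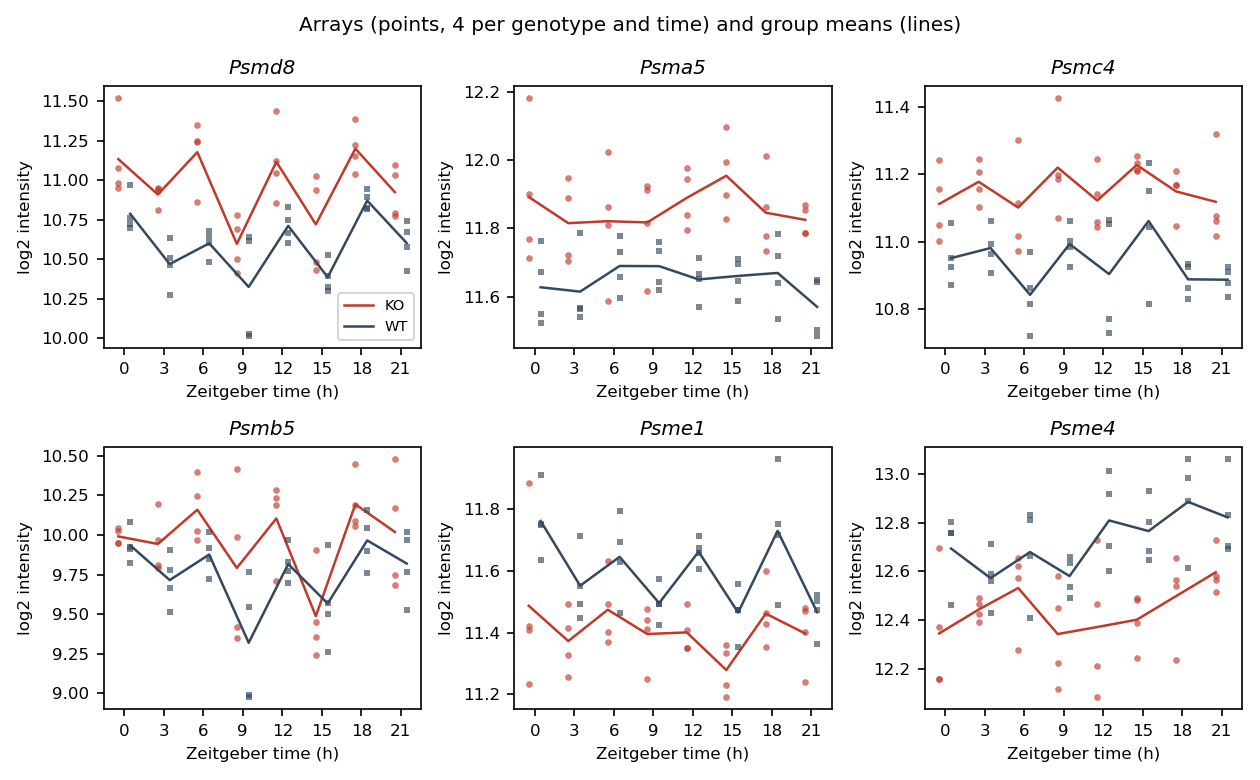
Log2 intensity of 6 genes is plotted against zeitgeber time in hours, with each array as a point (KO red circles, drawn left of the WT grey squares, 4 each per time) and the group means joined by lines. The KO line lies above the WT line at all 8 times for Psmd8, Psma5 and Psmc4, below it at all 8 for Psme1 and Psme4, and above it at 7 for Psmb5.

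Values within the time sets were read separately. At ZT 0, 6, 12 and 18, 4 genes rose, against 12.1% of all features, and 2 fell, against 15.4%. At ZT 3, 9, 15 and 21, 11 rose, against 11.6%, and 2 fell, against 10.7%. Without the 3 arrays that stand apart, 9 rose at ZT 0, 6, 12 and 18, and 1 fell at ZT 3, 9, 15 and 21. Shares over all features were not taken without these 3 arrays.

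Psmd8 (0.41 and 0.34), Psmc1 (0.22 and 0.23), Psmc4 (0.22 and 0.20) and Psma5 (0.20 and 0.22) passed in both sets, the value of ZT 0, 6, 12 and 18 first, and so did Psme4 (-0.33 and -0.24) and Psme1 (-0.24 and -0.13). The difference between the sets was called for none of the genes (limma, 0% of all features), and 1 gene had an unadjusted p under 0.05, against 8.04% of all features. That gene was Psmd14, at 0.09 and 0.36 in the same order (unadjusted p = 0.0149, adjusted p = 0.589). The level itself moved with the time set for 21 of the 38 genes, 14 up and 7 down at ZT 3, 9, 15 and 21, against 33.5% of all features, so time and set cannot be told apart for the neighbouring times.

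**Figure D3:**
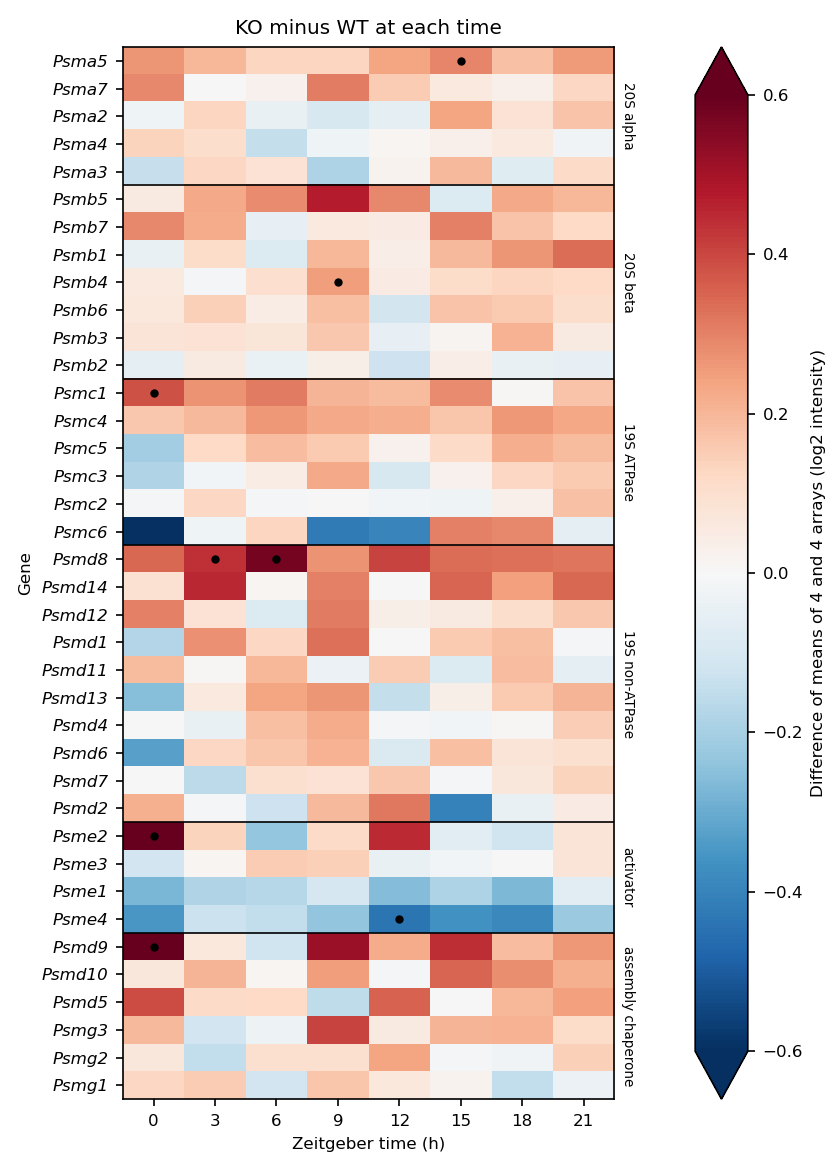
Rows are the 38 genes by class, columns the 8 zeitgeber times in hours, and colour the difference KO minus WT of 4 and 4 arrays in log2 intensity (red higher in KO, blue lower, cut at 0.6 on either side). Black dots mark the 8 pairs of gene and time with an adjusted p under 0.05, all arrays included; the Psmd8, Psmc4 and Psma5 rows are red and the Psme1 and Psme4 rows blue at every time.

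A daily rhythm of these genes was not called in either genotype. In the cosine fit 0 of 38 genes were rhythmic in KO hearts, against 1.38% of all features, and 0 in WT hearts, against 4.03%, and the rhythm differed between genotypes for 0, against 0.263%. At an unadjusted p under 0.05 the limma fit held 1 gene in KO, Psmg1, against 14.9% of all features, 6 in WT (Psma2, Psmb5, Psmc2, Psmd8, Psmd9 and Psme4), against 15.6%, and 0 in the comparison, against 4.74%. A test for any change over the day within a time set also called 0 genes in KO, against 1.48%, and 0 in WT, against 2.36%. A p that misses the threshold does not show that a level was flat.

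Fitted amplitudes were small. They ran between 0.01 and 0.18 in KO hearts, with a median of 0.06 beside 0.09 over all features, and between 0.01 and 0.25 in WT hearts, with a median of 0.06 beside 0.09. Psmd9, near background, had the largest WT amplitude (0.25), beside 0.18 in KO, and Psmb5 followed with 0.10 in KO and 0.17 in WT. The ATPase Psmc2 had the smallest adjusted p for a WT rhythm (0.131), with an amplitude of 0.05 in KO and 0.11 in WT. It became the only gene called rhythmic in WT without the 3 arrays that stand apart (adjusted p = 0.0274) and with array weights (adjusted p = 0.0102).

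**Figure D4:**
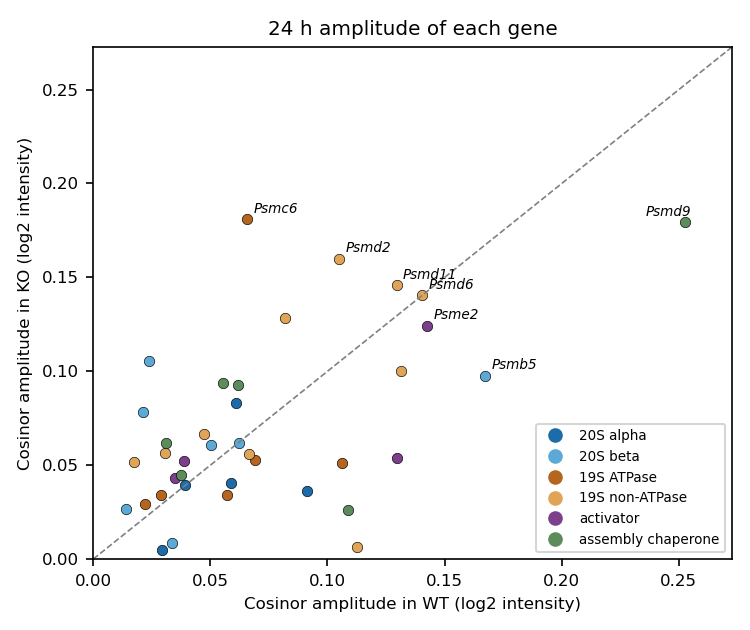
Each point is 1 of the 38 genes, coloured by class, with its fitted 24 h amplitude in KO hearts on the y axis and in WT hearts on the x axis, both in log2 intensity; the dashed line marks equal amplitudes. The largest amplitude is that of Psmd9 in WT (0.25), and points lie on both sides of the line.

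The genes moved together only weakly from array to array. After the mean of each genotype and time was taken off, the median Pearson correlation between pairs of the 38 genes was 0.07 over 64 arrays, beside 0.004 between these genes and all other features. It was 0.29 among the 5 alpha subunits, 0.10 among non-ATPase cap genes and -0.18 among activators, and without the 6 low-numbered arrays 0.05 over all pairs, 0.30, 0.08 and -0.12. Genes measured on 1 array share its RNA and its normalization, and these values are a description.

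Other genes of the pathway were taken from a list of 39, of which 26 were on the array and 20 were tested. Of these 3 rose, against 16.8% of all features, and 2 fell, against 19.7%, so calls were about as frequent as, or less frequent than, among all features. Without the 6 low-numbered arrays 5 rose and 3 fell, against 1620 and 1652 of the 9137 features. Usp14 (0.29, limma adjusted p = 5.8e-05) and Ubqln4 (0.16, limma adjusted p = 0.00142) were then added as higher. Mafg was added as lower (-0.13, limma adjusted p = 0.0441). Among 20 genes a few calls move the share, so it is not read as a difference from all features. With all arrays the median difference of the 20 genes was -0.03, and 0 were rhythmic in either genotype. Pomp, the maturation factor of the core, rose by 0.11 ± 0.03 (adjusted p = 0.00195). Vcp, the ATPase that extracts ubiquitinated proteins, rose by 0.15 ± 0.04 (adjusted p = 0.00133), and its cofactor Nploc4 by 0.20 ± 0.05 (adjusted p = 0.000789). Ecpas, which binds the assembled proteasome, fell by 0.23 (adjusted p = 0.000361), and Ube4b, a ubiquitin chain elongation factor, by 0.13 (adjusted p = 0.00704). Nfe2l1 itself gave -0.06 ± 0.04 and did not pass (adjusted p = 0.230).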

How the data were processed

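The members, the lists and the tests were chosen with earlier results of these data known. For every probe, the deposited table gives the mean intensity of its beads on each array, not normalized, and beside it a detection p-value, per the file headers. The sources used here do not name the software. The authors' deposited processed intensities served as an alternative.

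Background was removed with normexp in limma 3.58.1 (R 4.3.3), using the detection p-values and an offset of 16, and arrays were quantile normalized and log2 transformed. The filter asked for 4 arrays with a detection p under 0.01, and 12101 of 25697 probes passed. The probe with the highest mean stood for a gene, named from the platform annotation, which gave 9137 features. Each was fitted over 64 arrays with a mean, cosine and sine of 24 h per genotype and a time set term, or with a mean per group, and adjusted by Benjamini-Hochberg over all features. A difference between genotypes is the difference of log2 means. The fit was tested on simulated data. The number of arrays limits the precision.

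Full values are given for Psmb5, Psmb6 and Psmb7, for the 3 smallest adjusted p per class past 0.05, for rhythmic genes, for genes called at 3 or more times, and for up to 4 pathway genes per direction; other genes named were chosen after their values were seen. Alternatives changed background, scaling, offset, filter, probes, the time set term, weights and arrays; the set without the 6 lowest sample numbers was added after seeing the data.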

Additional observations from a re-analysis of the deposited data

Results flagged for a closer look

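For each array, the median deviation of the 38 genes, and of each class, from the mean of its group of 4 was tested with Dixon's ratio. Of 112 such tests 5 passed, and chance alone marks about 1 group in 20. In KO hearts the alpha subunits of ZT 12 replicate 147 lay at 0.0886 (log2), apart from the other 3 arrays of that group. In WT hearts the median of all 38 genes lay apart for ZT 3 replicate 164 (0.0686), ZT 12 replicate 30 (-0.0431) and ZT 15 replicate 180 (0.105), and that of the beta subunits for ZT 9 replicate 173 (0.0900). Of 76 tests of a difference in rhythm or between time sets, 0 passed.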

How the results depend on the processing

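No paired analysis was possible because each array carries a replicate number of its own. The chip as a block was not run, since the headers name no chip. The count of 14 genes higher and 2 lower in the 24 h mean ran from 13 to 15 and stayed at 2 when each array was left out in turn, and rhythms stayed at 0. With median scaling 21 rose and 1 fell; Psme1 lost its call there (-0.08, adjusted p = 0.319), the median of the 38 genes was 0.19, that of all features moved to 0.05, and 76.3% of all calls were higher, against 46.0% in the fit reported. ZT 0, 6, 12 and 18 fitted alone gave 5 higher. Rhythms in WT came to 1 without the arrays that stand apart and 1 with array weights. Single-time calls, 7 higher and 1 lower, were 12 and 4 with quantile normalization alone, 4 higher with no filter, 13 and 5 without the arrays that stand apart, 0 lower with median scaling, and 3 lower with offset 50 or detection on at least 32 arrays. At ZT 0, 6, 12 and 18, with 4 higher and 2 lower, median scaling gave 16 and 1, and leaving out the arrays that stand apart gave 9 higher. At ZT 3, 9, 15 and 21, with 2 lower, median scaling gave 0, no filter 1 and leaving out those arrays 1. Shares over all features were not taken for the single-time and time set counts of these alternatives. Of the 16 called genes, 15 kept the call whichever array was left out (not Psmb1) and 5 kept it in all other alternatives (Psma5, Psmc1, Psmc4, Psmd8 and Psme4). Psma7, Psmd9 and Psmd12 lost it in both time sets, each fitted alone. Without the 6 lowest-numbered arrays, chosen after the data were seen, single-time calls lower came to 2, and all 16 kept the 24 h call. Psmb3 gained a call in 12 of the leave-one-out fits and Psmd5 in 1, without KO ZT 9 replicate 170 (0.19, adjusted p = 0.0286). None reversed among called genes. The causes were not tested. Psmc6, Psmd5 and Psmd9 lie near background, which limits them.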
